A study of Mus musculus with 82 samples.

Results

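NIPBL was mapped in wild-type mouse stembryos by ChIPmentation (ChIP-M), a form of ChIP in which Tn5 tags the bead-bound chromatin with adapters. The 8 NIPBL lists of wt stembryos, 1 library each at 72, 84, 96, 108, 120, 132, 144 and 168 h after aggregation, were taken by their titles out of the 82 samples of the series. Together they held 183710 regions. Late stages (132, 144 and 168 h) were set against early stages (72, 84 and 96 h). Stembryos, also called gastruloids, grow from clumps of mES cells, which lengthen into a trunk-like body once CHIR, a GSK-3 inhibitor that switches on Wnt signaling, has been given. Every group used here shared the wt EmbryoMax mES cells and that treatment, and carried no engineered allele. Each library came from pooled stembryos, collected indiscriminately up to 96 h and only when elongating from 108 h on, so stage and selection cannot be told apart. With 1 library per stage there were no replicates, and the stages of a window are not replicates of each other.

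NIPBL, with its partner MAU2, is the factor best known for placing cohesin on DNA. Cohesin is a ring that extrudes chromatin loops until it meets CTCF, and RAD21 is one of its subunits. NIPBL is usually found at active promoters and enhancers, where H3K27ac and RNA polymerase II (PolII) also lie. During the stages covered here, the cells leave pluripotency, pass through a primitive streak-like state under Wnt signaling, and form an elongating trunk and tail in which Hox genes are switched on.

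The lists differed 8.28-fold in length. They held 6652, 4888, 34332, 20905, 18588, 19948, 40490 and 37907 regions from 72 to 168 h, and their length climbed with stage (rho = 0.738, r = 0.753, exact permutation p = 0.0458). The lists hold no read depth, and library depth was not used here. A lower bound on the background, solved from the deposited values and given in fragments per base, was 1.88 at 72 h, the lowest, and 5.58 at 168 h, the highest (exact permutation p = 0.115 for rho = 0.619). Its part in the results was not tested. Unless full length is named, all results that follow therefore used the first 4888 regions of each list, the length of the shortest, ranked within the list by the −log10 p-value of the strongest summit. Rank 1 is the strongest region. Between 15 and 19 of these per list were also present in all 29 lists of the other assays. Among the marker genes, Pou5f1, a core pluripotency factor, had a promoter region at 72 and 84 h (ranks 314 and 846) and none in any later list at full length. Nanog, Ptprc and Hbb-bt, markers of naive and blood cells, had none in any of the 8, and neither had Sox1 and Meox1, markers of the neural tube and the somites. Other markers of the same types differed. Sox2, also pluripotent, ranked 3771 at 72 h and 592 at 144 h, and Pax6, also neural, 4228 at 72 h and 4310 at 168 h. Tcf15, also of the somites, had regions at full length alone, from 96 h on and at best 6613 at 144 h. Sox17, Kdr and Tal1, of endoderm and vessels, were likewise found at full length alone. Foxa2, also of endoderm, ranked 1523 and 984 at 72 and 84 h. Of the tail bud markers, Cdx2 ranked 4768 at 96 h and lay below the first 4888 or was absent elsewhere, and T is given with the streak genes.

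The sequences printed here are examples that hold letters described below, not a sample of the regions. They are the 151 bases around the summit (GRCm38, RefSeq sequence), in lower case with every match to the 20 searched motifs in capitals. HOX-PBX, CDX/HOX9, TCF/LEF and T-box letters each lay within 100 bp of the summit at no more than 15.5% of regions off promoters. Over the same 151 bases, the late distal regions nearest Mylip, Slc35b3 and Wnt1 held neither HOX-PBX nor CDX/HOX9 letters. Intronic regions in Aff3, Nrg1, Ppargc1a, Nfix, Tet3 and Slit3 held no match at all. The first pair lies at distal regions of the late lists, more than 100 kb from any coding start. In the region nearest 3100002H09Rik (chr4:124478088-124478238, + strand) the capitals are TTTATGG (CDX/HOX9) and a run in which the OCT letters ATGCAAAT, read on the other strand, overlap those of the MSGN/TBX6 E-box, CCATTTG. In the region nearest Gm5148 (chr3:37917203-37917353, + strand) they are CCGGAAG (ETS) and a match to TGATTNAT, the HOX-PBX letters.
3100002H09Rik distal region: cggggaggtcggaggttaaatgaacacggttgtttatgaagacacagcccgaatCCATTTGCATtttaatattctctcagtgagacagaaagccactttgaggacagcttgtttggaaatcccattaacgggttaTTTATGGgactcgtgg
Gm5148 distal region: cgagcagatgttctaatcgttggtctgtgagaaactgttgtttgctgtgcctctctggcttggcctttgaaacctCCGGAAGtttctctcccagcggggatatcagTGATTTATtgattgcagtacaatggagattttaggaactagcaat

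The next pair lies at distal regions of the early lists. The region nearest Lcor (chr19:41441484-41441634, + strand) holds CTTTGAT, the TCF/LEF letters, and that nearest Sla2 (chr2:156905429-156905579, + strand) holds AGGTGTGA, the T-box letters.
Lcor distal region: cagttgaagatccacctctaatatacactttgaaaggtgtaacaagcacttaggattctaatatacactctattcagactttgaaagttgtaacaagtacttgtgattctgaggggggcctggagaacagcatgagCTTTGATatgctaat
Sla2 distal region: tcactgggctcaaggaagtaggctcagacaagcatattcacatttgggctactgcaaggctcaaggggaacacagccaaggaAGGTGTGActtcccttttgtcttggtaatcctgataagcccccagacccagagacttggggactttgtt

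The last 4 lie at promoters and follow the strand of the gene. Msgn1 (chr12:11209116-11209266, − strand) and Mesp2 (chr7:79810719-79810869, + strand) stood for genes of the early lists, Hoxa4 (chr6:52190871-52191021, − strand) for a Hox gene whose rank climbed, and Tcf3 (chr10:80433959-80434109, − strand) for genes held at every stage. The capitals are the NF-Y box and TCF/LEF letters in Msgn1, T-box and MSGN/TBX6 E-box letters in Mesp2, CDX/HOX9 letters on both strands in Hoxa4, and letters of the GC box, the NF-Y box and GATA factors in Tcf3. The NF-Y box was searched as ATTGG on either strand, and the GATA letters were AGATAAG.
Msgn1 promoter: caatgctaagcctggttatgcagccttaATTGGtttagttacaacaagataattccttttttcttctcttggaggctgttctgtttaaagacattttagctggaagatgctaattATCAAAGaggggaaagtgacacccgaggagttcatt
Mesp2 promoter: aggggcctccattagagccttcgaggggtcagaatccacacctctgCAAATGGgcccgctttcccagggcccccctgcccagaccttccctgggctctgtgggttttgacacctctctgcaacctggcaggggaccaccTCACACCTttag
Hoxa4 promoter: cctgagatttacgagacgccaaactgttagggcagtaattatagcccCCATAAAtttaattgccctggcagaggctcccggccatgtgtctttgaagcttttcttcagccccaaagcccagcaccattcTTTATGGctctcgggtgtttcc
Tcf3 promoter: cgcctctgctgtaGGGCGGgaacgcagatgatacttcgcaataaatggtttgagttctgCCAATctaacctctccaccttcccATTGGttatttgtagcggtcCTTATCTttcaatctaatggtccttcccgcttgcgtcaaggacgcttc

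Promoters held 41.3 to 61.5% of the NIPBL regions at every stage, and a lower share at each late than at each early stage. Promoters were the 1 kb on either side of any annotated transcript start of a protein-coding gene, internal and noncoding transcripts included. They cover 3.59% of the genome, gene bodies outside them 35.2% and distal sequence 61.2%. From 72 to 168 h the promoter share was 56.2, 54.2, 61.5, 43.6, 43.1, 49.4, 41.3 and 50.1%, which is 11.5 to 17.1 times the genomic share. The 3 early stages were all above the 5 that followed. Gene bodies held 14.9, 17.2, 14.2, 21.6, 22.5, 19.8, 23.1 and 19.9% of the regions, mostly in introns, and exons held 1.04 to 2.00%. Distal sequence held 28.9, 28.6, 24.3, 34.7, 34.5, 30.8, 35.6 and 30%.

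Promoters took 46.9% ± 4.91 of late regions and 57.3% ± 3.75 of early regions (SD over 3 stages each), a difference of −10.4 points. For gene bodies the means were 20.9% ± 1.91 late and 15.5% ± 1.56 early, and for distal sequence 32.1% ± 3.02 late and 27.3% ± 2.56 early. The 2 windows did not overlap in any of the 3 classes. Each of the 3 differences had p = 0.1 in a two-sided exact permutation test, the smallest value that 3 lists against 3 allow. The exact 95% binomial interval of a single share was narrower than that spread, at 39.9 to 42.7% for promoters at 144 h and 60.1 to 62.8% at 96 h. Such intervals cover counting error only.

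Over all 8 stages the trend did not pass the test. The promoter share had rho = −0.619 (r = −0.542, and −0.694 without the 72 and 168 h lists), the gene body share had rho = 0.667 (r = 0.659 and 0.73) and the distal share rho = 0.571 (r = 0.422 and 0.663). The adjusted p was 0.151 in all 3 exact permutation tests, and that of r was 0.251, 0.238 and 0.295. At full length the same trends passed at an adjusted p of 0.0458 (exact permutation, rho = −0.738, 0.738 and 0.762), but there list length climbed with stage as well, and the part of list length was not tested. The windows overlapped at full length, with promoter shares of 37.3% at 96 h and 46.3% at 132 h. Late against early there had p = 0.2 in each of the 3 classes (exact permutation).

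The strongest regions were less often at promoters than the weaker ones. Among ranks 1 to 500 the promoter share lay between 22.4% (144 h) and 51.2% (96 h), and among ranks 2001 to 4888 between 44.2% (108 h) and 62.1% (96 h). Within every list the first 500 regions had a lower promoter share than ranks 2001 to 4888. Median region width in the compared lists was 372, 281, 732, 572, 614, 642, 978 and 989 bp from 72 to 168 h, and the 132 h regions were narrower than those at 96 h.

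**Figure D1:**
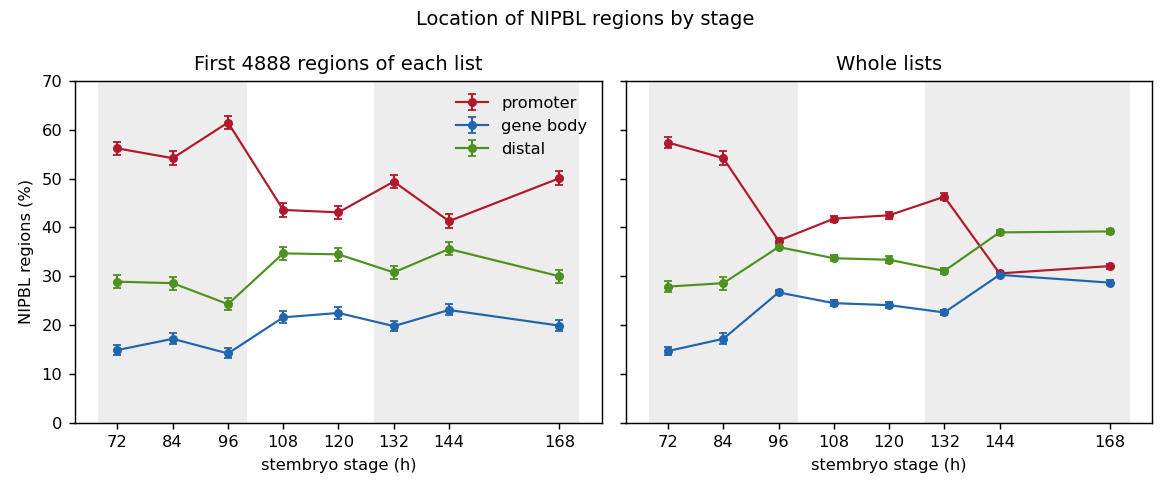
Share of NIPBL regions at promoters, in gene bodies and in distal sequence (%, vertical axis) against stembryo stage (h, horizontal axis), for the first 4888 regions of each list (left) and whole lists (right). Points are single libraries, bars are exact 95% binomial intervals and the shaded bands mark the early and late stages; the promoter share lies between 41.3 and 50.1% in the late band and between 54.2 and 61.5% in the early band of the left panel.

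Neighboring late stages shared most of their regions. The 144 h list had 67.2% of its regions overlapped by those of 168 h, and 67.3% the other way round. Between 132 and 144 h the overlap was 64.3 and 63.8%, and between 120 and 132 h it was 60.7% of both. The 72 and 84 h lists shared 49.7 and 50.3%, whereas the 72 and 168 h lists shared 27.1 and 26.6%. The 96 h regions covered 34.7 to 43.1% of the other lists, and shared most with the 168 h list. Merged over the 8 lists there were 15541 regions, of which 450 (2.90%) were in every list and 6841 (44.0%) in 1 list only. The regions in every list were mostly promoters (72.9%). Those of all 3 late and no early list were mostly not, with 10.9% of 772 at promoters, 36.4% in gene bodies and 52.7% distal, and those of all 3 early and no late list had 17.3% of 452 at promoters, 29.9% in gene bodies and 52.9% distal.

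Few genes were held in all lists of one window and none of the other. Of 21938 protein-coding genes, 7218 had a promoter region in at least 1 list at equal length and 14720 had none. Between 2500 (144 h) and 3626 (96 h) genes were held per list. A region in all 3 late and no early list was found at 99 genes, or 0.451% of all genes, and a region in all 3 early and no late list at 100 genes, or 0.456%. Because one region can cover a shared promoter, these rested on 87 and 88 regions. All 8 lists held 420 genes (1.91%). These counts are about rank and not about presence. When whole lists were compared, 9 of the 99 late genes had no region in any early list (Acoxl, Bcl11a, Dct, Hist1h4k, Hist1h4n, Lrmda, Neurog2, Oacyl and Ptf1a), and 6 of the 100 early genes had none in any late list (4931440F15Rik, Aplnr, Gpld1, Mmp21, Msgn1 and Plcxd1). The counts also turned on single lists. The late count was 328 without the 96 h list, 178 without 132 h, 164 without 168 h and 159 without 84 h, and the early count was 444 without 96 h, 219 without 84 h and 214 without 72 h.

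No gene passed the test of a rank trend across the 8 stages. In the exact permutation test over all orders of the lists, with Benjamini-Hochberg adjustment over the 3568 genes held in at least 3 lists, 0 rose and 0 fell (0% each), with 196 rising and 204 falling at an unadjusted p under 0.05. The smallest unadjusted p was 0.000298 and the smallest adjusted p 0.273. The genes are therefore described by their ranks, with no call.

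The 12 late genes with the highest mean rank score included Lrmda and Dct, a histone pair and Hoxc5. Lrmda, linked to melanocyte differentiation, had ranks 543, 404, 81 and 32 at 120, 132, 144 and 168 h, and no region in the early lists at full length. Dct, an enzyme of melanin synthesis, stood at 4849, 730, 184 and 267 over the same stages. Both gained rank after 120 h and both were absent from the early lists. Adgra2, a receptor that works with Wnt7 ligands, ranked 628, 454, 86, 222 and 1834 from 108 to 168 h. Galnt4, which starts O-linked glycosylation, ranked 180, 386, 668, 504 and 625 over those stages. It was thus strongest at 108 h, before the late window. Neurog2, a proneural factor, stood at 2639, 2556, 494, 1181 and 1371 from 108 to 168 h. Ptf1a, a bHLH factor of the pancreas and dorsal neural tube, was named after its values were seen and ranked 2195, 1797, 1506, 891 and 1291. Neither had a region in any early list at full length. The promoter shared by Polr2l, a subunit of RNA polymerases, and Tspan4, a tetraspanin, ranked 2139, 1322, 776, 947 and 1219. The other 2 among the 12 strongest outside the Hox and histone genes were Oacyl (1171, 680 and 1023 at 132, 144 and 168 h) and Acoxl, an acyl-CoA oxidase-like gene (1184, 2611, 454 and 521 from 120 h).

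The 12 early genes with the highest mean rank score were led by Dpm1 and Gpld1 and included Cdx1, given with the streak genes. Dpm1, a subunit of the enzyme that makes the mannose donor of glycosylation, ranked 59, 263 and 198 at 72, 84 and 96 h, and its region stood at 11811, 11742 and 6846 in the late lists at full length. It was therefore still called late, but far down. Gpld1, a phospholipase that cuts GPI anchors, ranked 682, 578 and 288, and was in no late list. Both summits lay inside the gene, near internal transcript starts. The bases around that of Dpm1 were chr2:168214165-168214315, with the 5′ end of the gene at 168230591. Those of Gpld1 were chr13:24955586-24955736, with the 5′ end at 24943152. Lsm14b, an RNA-binding protein, had the smallest unadjusted p of all genes and ranked 184, 407, 2008, 4248 and 4349 from 72 to 120 h (rho = −0.976, adjusted p = 0.273, exact permutation). Cdk18, a cyclin-dependent kinase, ranked 192, 233 and 2063, and Coq8a, of coenzyme Q synthesis, 501, 1671 and 834. The promoter shared by Pphln1, of the HUSH silencing complex, and Zcrb1, of the minor spliceosome, ranked 816, 2114 and 1088. The remaining genes among the 12 strongest, Plcxd1, Gstt2, 1190007I07Rik and Cdkn2aipnl, had early ranks between 355 and 3291.

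The genes held throughout were topped by regions shared with every other assay. Gm10800 was rank 1 in all 8 lists, and it, Gm10801 and Gm21738 lay on regions that were also present in all 29 lists of the other assays. Next came the promoter shared by the zinc finger genes Zfp646 and Zfp668, which ranked 40, 26, 40, 8, 7, 9, 4 and 3 from 72 to 168 h. Tcf3, an E protein that partners tissue bHLH factors, ranked 349, 64, 23, 36, 38, 40, 22 and 23, and Rbm25, a splicing factor, 581, 50, 7, 21, 50, 42, 30 and 65. All of these had their lowest standing at 72 h, which Zfp646 and Zfp668 also had at 96 h. AW549877, Atp5l (a subunit of ATP synthase) and Zmym6 stayed between ranks 13 and 263.

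**Figure D2:**
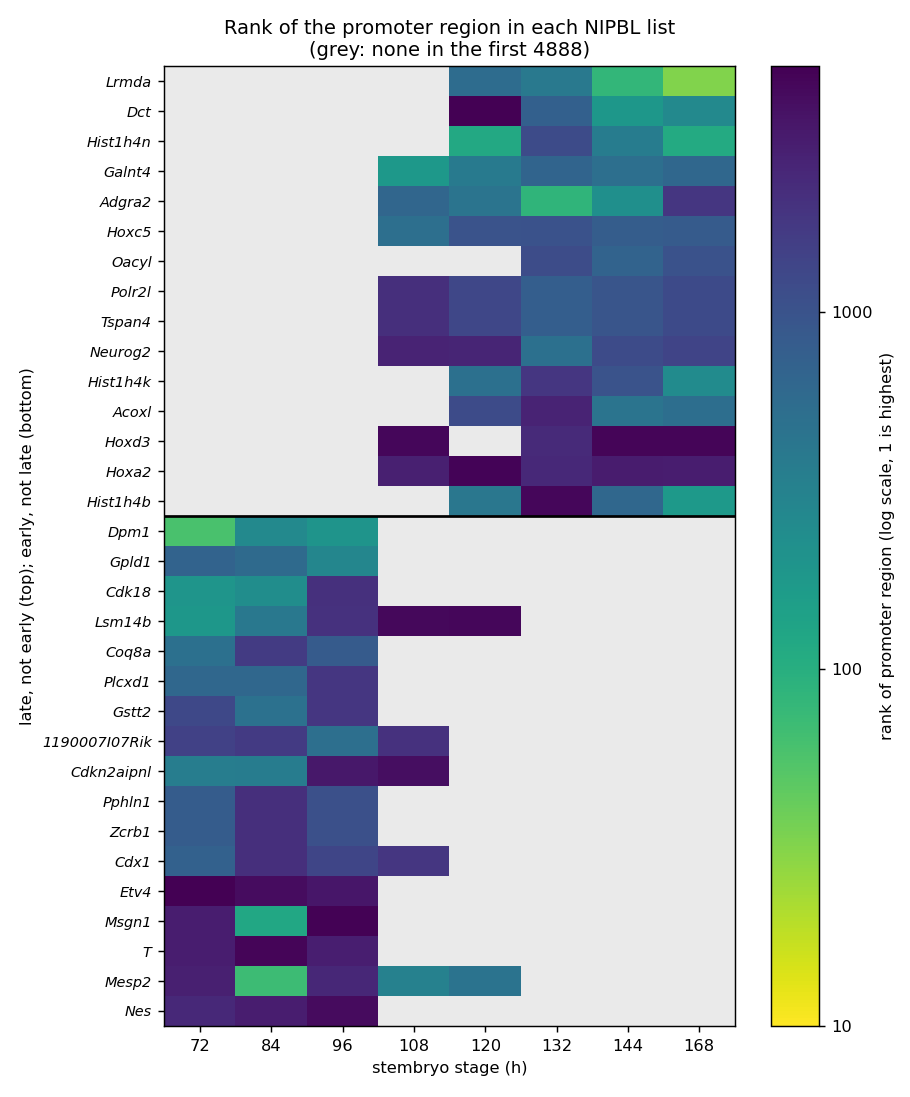
Rank of the promoter region in each NIPBL list (color, log scale, 1 is highest; grey where none was among the first 4888) for the named genes held late and not early (top, Lrmda to Hist1h4b) and early and not late (bottom, Dpm1 to Nes), against stembryo stage (h). Lrmda stood at rank 32 at 168 h and Dpm1 at rank 59 at 72 h; Lsm14b and Mesp2 kept a region until 120 h.

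Genes of the primitive streak, which mark the cells that leave the epiblast, were held up to 108 h and in no later list at equal length. Of 20 streak genes, 6, 6, 5, 2, 0, 0, 0 and 0 were held from 72 to 168 h, a mean of 0% late and 28.3% early, beside 12.7% late and 14.7% early for all genes. T, the Brachyury factor, ranked 2953, 4439 and 2926 at 72, 84 and 96 h. Msgn1, a bHLH factor of the presomitic mesoderm, ranked 2990, 119 and 4700, with its peak at 84 h, and was in no late list at full length. Cdx1, a homeodomain factor of the posterior embryo, ranked 722, 2098, 1332 and 1817 up to 108 h. These 3 held a region in each early list and in no late list at equal length. At full length T was still called at 144 and 168 h (40416 and 34344). Cdx1 was called in all late lists (9804, 22430 and 17885). Ranked by fold enrichment, the late minus early rank score was −0.00361 for T, −0.277 for Cdx1 and −0.47 for Msgn1. Under the ranking used elsewhere these scores were −0.297, −0.717 and −0.468. Foxa2 (1523 and 984 at 72 and 84 h), Mixl1 (4185 at 72 h) and Lhx1 (2040 at 84 h) were held in fewer early lists. Cer1, a secreted Nodal and BMP antagonist, ranked 987, 2650 and 2561 at 72, 84 and 108 h. None of the 4 streak genes that could be tested for a trend passed.

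The 3 pluripotency lists differed in their shares beside those of all genes, 12.7% late and 14.7% early. Of 16 naive pluripotency genes, 3, 2, 1, 1, 1, 1, 0 and 0 were held (2.08% late and 12.5% early, the early share being near that of all genes), and of 12 genes of general pluripotency 5, 4, 2, 3, 2, 2, 3 and 1 (16.7% late and 30.6% early). Tbx3, which belongs to the naive list but also acts in later tissues, ranked 3730, 1959, 1163 and 4376 at 72, 84, 108 and 132 h. Formative epiblast genes, with 4, 5, 3, 3, 3, 7, 5 and 1 of 14 (31% late and 28.6% early), had their highest count at 132 h and their lowest at 168 h. Etv4, an FGF-responsive ETS factor of that list, ranked 4874, 3981 and 3335 early and stood just below the first 4888 in the late 144 h list, at 4986. These lists are small, and at most 6 members were held at any stage of the streak list.

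The segmentation clock and the signaling lists mixed both directions. Mesp2, which sets the somite boundary, ranked 2806, 70, 2450, 319 and 462 from 72 to 120 h and lay below the first 4888 afterwards. Hes1, a Notch effector named after its values were seen, was held at all 8 stages, with ranks 1243, 918, 1385, 72, 66, 28, 72 and 147. Sp5, a direct Wnt target also named after the fact, went the other way, with 147, 29, 110, 512, 474, 1635, 3489 and 4616. The Wnt antagonist Axin2, likewise chosen, ranked 2546 and 1363 at 72 and 84 h, had none at 96 h, and stood at 606, 185, 343, 248 and 606 afterwards. Wnt targets thus did not move as one, and 2 to 4 of the 15 were held at each stage (22.2% late and 20% early). Of the FGF response list 4 to 6 of 12 were held (38.9% late and 41.7% early). The Notch and clock list had 3, 4, 3, 6, 5, 4, 2 and 2 of 14 (19% late and 23.8% early). For all genes the shares were 12.7% late and 14.7% early.

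Hox genes had their highest count at 108 h, and the counts of the windows met, with 7 at 132 h and 7 at 84 h. The counts were 1, 7, 6, 12, 6, 7, 9 and 10 of 39, or a mean of 22.2% late and 12% early, beside 12.7% late and 14.7% early for all genes. The difference was not tested. Hoxa4 had ranks 3308, 690, 530, 637, 406, 121 and 59 from 84 to 168 h (rho = 0.976, exact permutation p = 0.000397, adjusted p = 0.273). Hoxc5 ranked 513, 1002, 1019, 791 and 823 from 108 h, and Hoxa2 2832, 4586, 2409, 3075 and 2969. These and Hoxd3 (4416, 2353, 4459 and 4534 at 108, 132, 144 and 168 h) were the 3 Hox genes held late and not early. When regions were ranked by fold enrichment, the late minus early rank score of Hoxc5, Hoxa2 and Hoxd3 was 0, against 0.821, 0.424 and 0.226 by −log10 p. Hoxc4 was already at rank 38 at 96 h, after 1080 at 84 h, and stood at 170, 779, 832, 277 and 264 later. Hoxd4 was held from 84 to 120 h (1761, 1178, 1313 and 2348) and again at 168 h (4534), through the region also counted for Hoxd3. Hoxb8 (3788 at 96 h and 410 at 108 h) and Hoxb2 (384 at 132 h) peaked at single stages.

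Lists of somite and neural regulators were held at shares near that of all genes (12.7% late and 14.7% early), and cardiac and endoderm regulators below it. The paraxial mesoderm list had 2, 2, 1, 4, 4, 3, 3 and 1 of 16 (14.6% late and 10.4% early), with Eya1 at rank 444 and Foxc2 at 2093 at 108 h, and Rdh10, an enzyme of retinoic acid synthesis, between 1746 and 3836 from 96 h on. The neural list had 3, 2, 1, 3, 2, 3, 2 and 4 of 20 (15% late and 10% early). In it Nes, an intermediate filament gene, ranked 2370, 3003 and 4076 in the early lists and was in no late list at equal length. At full length the Nes region stood at 9697, 10510 and 13689 in the late lists. With whole lists the late minus early rank score of Nes was −0.00591, against −0.356 at equal length. The cardiac and vascular list (0% late and 1.75% early) had no member in 6 of the 8 lists and the endoderm list (0% late and 7.14% early) none from 108 h on. In bulk material, fewer cells of a type and less NIPBL per cell cannot be told apart.

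Replication-dependent histone genes, which are transcribed in S phase, swung most between stages among the gene lists. Of 67 genes, 13, 19, 37, 14, 46, 17, 40 and 57 were held from 72 to 168 h, or a mean of 56.7% late and 34.3% early. For all genes the shares were 12.7% late and 14.7% early. The 132 h count, 17, lay below the early 84 and 96 h counts, so the windows overlapped. Hist1h4n ranked 117, 1183, 360 and 110 from 120 h, Hist1h4k 502, 1851, 996 and 247, and Hist1h4b 421, 4388, 619 and 175. All 3 were weakest at 132 h among these stages, and all 3 are H4 genes of near-identical coding sequence. The authors kept only properly paired alignments of high mapping quality, and the effect of that similarity on these calls was not tested. Ranked by fold enrichment, Hist1h4k and Hist1h4b had a late minus early rank score of 0, against 0.789 and 0.647 by −log10 p. Cytosolic ribosomal protein genes had 19, 24, 47, 21, 32, 33, 33 and 41 of 79 (45.1% late and 38% early), with the highest count at 96 h. Immediate early genes, with 2, 0, 5, 1, 1, 1, 1 and 3 of 14, also had their highest count there. Their 11.9% late and 16.7% early were near the shares of all genes. Cohesin and its regulators had 3, 5, 5, 1, 2, 3, 3 and 6 of 16 (25% late and 27.1% early). Nipbl itself was held at 84 h alone (rank 2018).

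**Figure D3:**
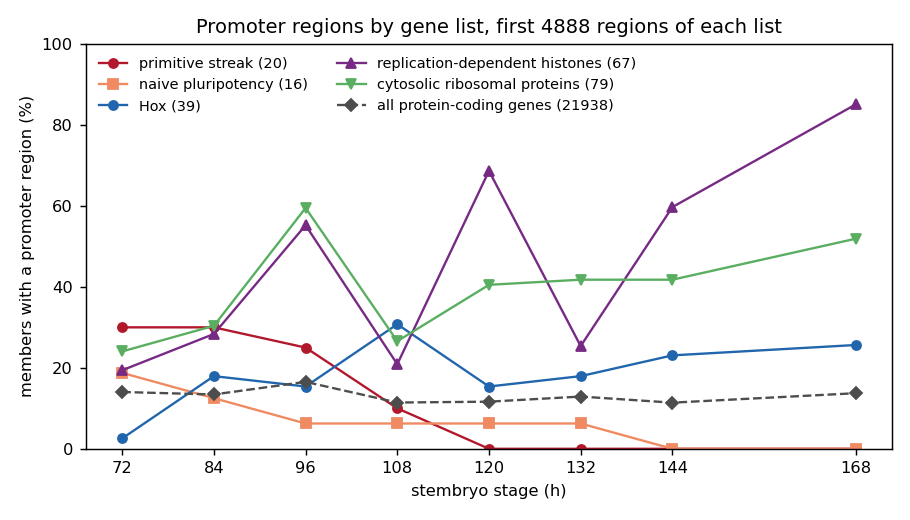
Share of the members of 5 gene lists with a promoter NIPBL region among the first 4888 of each list (%, vertical axis) against stembryo stage (h, horizontal axis), with the number of genes in brackets and all protein-coding genes dashed. Streak genes go to 0% from 120 h on, Hox genes average 22.2% late and 12% early, and histone genes swing between 13 and 57 of 67.

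Away from promoters the 2 windows were set apart by distal and intronic regions. The late distal region with the highest mean rank score, chr4:124477638-124478644, lay 132640 bp from the start of 3100002H09Rik and ranked 2908, 1108, 39, 10 and 7 from 108 to 168 h. The next were chr13:45261660-45262642, nearest Mylip (579, 27, 26, 20 and 48 from 108 h), and chr3:37916908-37917907, nearest Gm5148 (215, 56, 26 and 33 from 120 h). A region 8366 bp from the start of Wnt1, chr15:98797691-98798645, ranked 4420, 713, 94, 15 and 22. Each of these climbed to within the first 100 ranks by 132 h. The late distal region nearest Slc35b3, chr13:39523262-39524556, ranked 1151, 103, 18 and 9 from 120 h. It was thus just outside the first 100 at 132 h. In introns, a region of Cacna2d1, a calcium channel subunit, ranked 1272, 238, 35, 6 and 8, one in Nfix 104, 18, 16, 13 and 101, and one in Nrg1, a ligand of ErbB receptors, 1471, 248, 107 and 54 from 120 h. The intronic regions were named after their ranks were seen.

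The 5 leading early distal regions were still among the first 4888 at 108 h. The region chr19:41441133-41441907, 41078 bp from Lcor, ranked 25, 84, 76 and 1439 from 72 to 108 h and lay below the first 4888 or was absent afterwards. The region chr15:36706100-36707076, nearest Ywhaz, ranked 74, 165, 10, 236 and 4341, and chr2:156905087-156905944, nearest Sla2, 156, 142, 21 and 976. The best rank of the last pair was at 96 h. An intronic region of Tet3, a methylcytosine dioxygenase, ranked 43, 65, 77 and 3137, and one of Dach1 122, 93, 12, 1353 and 1309. Those of Slit3 (174, 82 and 425) and Aldh7a1 (339, 140 and 97) were among the first 4888 at the early stages alone. In the other assays, RAD21 covered the Lcor region at 72, 84, 96 and 108 h and H3K27ac at 72, 84 and 96 h. The Ywhaz and Sla2 regions had RAD21 at all 7 stages with a list, the late ones included, and CTCF at 72 and 168 h. The 3100002H09Rik region had RAD21 at 108, 132, 144 and 168 h and no H3K27ac at any stage, and the Cacna2d1 region had H3K27ac at 72, 84 and 96 h alone, the stages at which its NIPBL region was not among the first 4888.

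H3K27ac and RAD21, which the choice of regions did not use, differed between the windows in the direction of NIPBL at the regions off promoters. Of the 688 late and not early regions, H3K27ac at equal length overlapped 6.98, 12.8, 28.2, 45.3, 46.8, 49.0, 49.3 and 54.1% from 72 to 168 h, and RAD21 4.94, 6.10, 12.8, 27.2, 68, 54.4 and 41.1%, with no 120 h list used. H3K27ac thus stood higher at 96 and 108 h than at 72 h, and RAD21 was highest at 132 h. The window means were 50.8% ± 2.86 late and 16.0% ± 11 early for H3K27ac, and 54.5% ± 13.4 late and 7.95% ± 4.24 early for RAD21. Of the 374 early and not late regions, H3K27ac overlapped 70.3, 77.0, 69.3, 33.7, 23.5, 20.9, 21.4 and 17.1%, and RAD21 60.4, 86.4, 89.6, 46.5, 8.02, 6.95 and 5.61%. The means were 19.8% ± 2.33 late and 72.2% ± 4.20 early for H3K27ac, and 6.86% ± 1.21 late and 78.8% ± 16.0 early for RAD21 (SD over 3 stages each). In none of these did the windows overlap, and each exact permutation test gave p = 0.1, the smallest that 3 against 3 allow. PolII was rarer, at 7.22% ± 3.25 late and 2.13% ± 0.655 early on the late regions, and 3.39% ± 0.557 late and 21.9% ± 10.7 early on the early regions (p = 0.1 each, exact permutation). CTCF lay on 5.38 to 9.36% of either group at 72 and 168 h.

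At promoters the H3K27ac differences were 8.73 and −8.12 points (p = 0.1 each, exact permutation). H3K27ac overlapped 86.9% ± 2.38 late and 78.2% ± 2.48 early of the late and not early promoter regions, and 84.6% ± 1.28 late and 92.7% ± 0.74 early of the early and not late ones. Of the 99 late genes, 85 had a promoter H3K27ac region at all 8 stages, as did 86 of the 100 early genes. For PolII these counts were 76 and 82. Among all 7218 genes held in at least 1 list, 6468 had H3K27ac and 6222 had PolII at all 8 stages, so the late and early genes were not above that background.

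**Figure D4:**
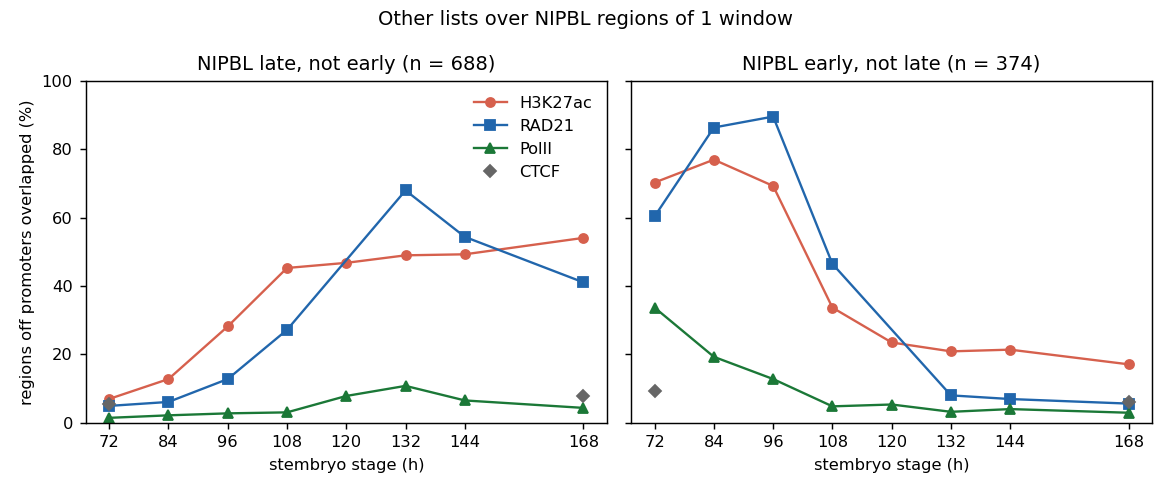
Share of NIPBL regions off promoters overlapped by H3K27ac, RAD21, PolII and CTCF lists at equal length within each assay (%, vertical axis) against stembryo stage (h, horizontal axis), for the 688 regions held late and not early (left) and the 374 held early and not late (right). H3K27ac reaches 54.1% at 168 h on the left and is 17.1% there on the right; CTCF points are at 72 and 168 h only and RAD21 has no 120 h point.

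Over all 4888 regions of a stage, no trend in the overlap with other assays passed the test. H3K27ac of the same stage covered between 65.6% (108 h) and 84.1% (96 h) of NIPBL regions (rho = 0.0476, r = 0.00651 and −0.290 without 72 and 168 h, adjusted p = 0.977), PolII between 46.6% (108 and 144 h) and 66.8% (96 h, rho = −0.524, r = −0.529 and −0.603, adjusted p = 0.59), and RAD21 between 22.4% (72 h) and 74.3% (96 h, rho = 0.143, r = 0.0621 and −0.296, adjusted p = 0.977), in exact permutation tests adjusted over 6. The 96 h list had the highest overlap with each of the 3. CTCF covered 21.9% at 168 h and 18.8% at 72 h, and H3K27me3, the mark of Polycomb repression, 1.66 to 4.28%. The same regions shifted by 100 kb gave 0.675 to 6.71% over all assays.

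Some genes were covered over much of their length. Among genes of at least 5 kb, Foxc1, a forkhead factor of mesenchyme, had 57.3% of its span under NIPBL regions at full length at 144 h and 0% at 72 and 84 h. Zfp503, Sp8, Crebzf and Sox11 followed, with 52.0, 50.2, 44.3 and 31.7% at 144 h and 0 to 14.1% at 72 and 84 h. Mycn had 47.2% at 144 h and 0% up to 96 h. Gm10717, Cdx2, Rap2b and Lpar6 had 26.8 to 36.9% at 144 h, and Gm10717 had 20.8% already at 72 h. Whole lists were used, so their length enters these values, and the number of genes covered over more than 20% of their span was 1, 1, 14, 12, 13, 16, 110 and 99 of 17798 from 72 to 168 h.

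The letters under the summits changed with stage off promoters. In all, 20 motifs were searched on both strands within 100 bp of the summit and compared with positions 1 kb away. The planned test took all regions of a list together. The split into regions at and off promoters was not planned, and each set was adjusted on its own over the 20 motifs. The HOX-PBX letters TGATTNAT lay at 2.43, 2.5, 5.84, 6.68, 9.27, 8.85, 10.6 and 10.7% of regions off promoters from 72 to 168 h, against 2.96 to 3.38% at 1 kb (rho = 0.976, r = 0.942 and 0.953 without 72 and 168 h, adjusted p = 0.00794, exact permutation). The CDX/HOX9 letters TTTATGG lay at 1.73, 2.59, 6.95, 7.77, 6.22, 7.36, 9.65 and 8.77%, against 2.94 to 3.32% (rho = 0.857, r = 0.845 and 0.798, adjusted p = 0.0357, exact permutation). Both were at or below the local background at 72 and 84 h and above it from 96 h on. A HOX-PBX match with T at the open position that is followed by GG also holds the CDX/HOX9 letters.

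Letters of Wnt and streak factors went down. The TCF/LEF letters CTTTGAT lay at 12, 11.6, 15.5, 8.57, 6.43, 5.34, 5.71 and 4.59%, against 3.05 to 3.55% at 1 kb (rho = −0.905, r = −0.834 and −0.831, adjusted p = 0.0228, exact permutation). The T-box letters AGGTGTGA lay at 2.61, 3.13, 2.76, 2.14, 0.827, 0.768, 0.348 and 0.246%, against 0.603 to 1.03% (rho = −0.929, r = −0.921 and −0.971, adjusted p = 0.0149, exact permutation). T-box letters were thus above the background up to 108 h and below it from 120 h. The OCT letters ATGCAAAT had 3.97, 2.90, 4.14, 0.762, 0.755, 0.849, 0.906 and 1.27%, and with rho = −0.476 (adjusted p = 0.347, exact permutation) did not pass. Letters of SOX (ACAAAGG, 7.33 to 15.4%) and E-box factors (CAGCTG, 15.7 to 22.6%) were above the background throughout and did not pass either. Of the other letters in the printed sequences, those of ETS factors lay at 1.47 to 3.13% (0.731 to 1.05% at 1 kb), the NF-Y box at 21.3 to 27.9% (24.5 to 27.1%), GATA at 1.78 to 4.31% (2.75 to 3.01%) and the MSGN/TBX6 E-box at 4.45 to 6.79% (3.34 to 4.11%).

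Off promoters 7 of the 20 passed in all, the other 3 being the GC box (GGGCGG, rho = −0.833), the CTCF core (AGGNGGC, rho = −0.929) and AP-1 (TGANTCA, rho = 0.857). The GC box lay at 6.61 to 12.6% (2.94 to 4.6% at 1 kb) and the CTCF core at 13.8 to 21.5% (9.48 to 10.6%). AP-1 stayed at 5.54 to 7.05%, near its 5.21 to 6.29% at 1 kb. Over all regions, the planned set, 5 passed (AP-1, HOX-PBX, TCF/LEF, T-box and the CTCF core). CDX/HOX9 (rho = 0.81, adjusted p = 0.0622) and the GC box (rho = −0.476, adjusted p = 0.324) did not pass there (exact permutation). In promoter regions 0 passed, with 3 at an unadjusted p under 0.05. The calls rest on few lists. With any 1 list left out, 0 to 6 of the motifs off promoters and 0 to 4 over all regions passed, and without both the 72 and 84 h lists 3 and 0. HOX-PBX was lost without the 168 h list (adjusted p = 0.0556, exact permutation), T-box without 132 or 168 h (0.0615 each), TCF/LEF without 108, 120, 132 or 168 h (0.0615 to 0.0952), and CDX/HOX9 passed with 108 or 120 h left out but not with any of the other 6 left out (0.0794 to 0.16). Off promoters 0 passed without the 168 h list and 1 without 132 h. Over all regions 0 passed without the 84, 96 or 144 h list, 2 without 132 h, and 3 without 72, 108 or 168 h. The share of G and C around the summits was 58.3, 56.8, 56.0, 53.6, 52.8, 55.8, 53.0 and 54.3% from 72 to 168 h, and its part in the motif shares was not tested.

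The same letters set the window-specific regions apart. HOX-PBX letters lay at 13.4% of the 688 late and not early regions off promoters (92 regions) and at 1.87% of the 374 early and not late ones (7 regions), beside 7.17% of the 9078 merged regions off promoters. For CDX/HOX9 the shares were 9.74% late and 1.60% early, beside 6.21%. TCF/LEF letters lay at 6.10% of the late and 25.9% of the early regions, beside 8.37%, T-box letters at 0.436% late and 5.61% early, beside 1.77%, and OCT letters at 0.581% late and 6.95% early, beside 2.09%. SOX letters lay at 13.2% late and 13.1% early. These shares come from the same lists as the trends and are no further test of them.

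**Figure D5:**
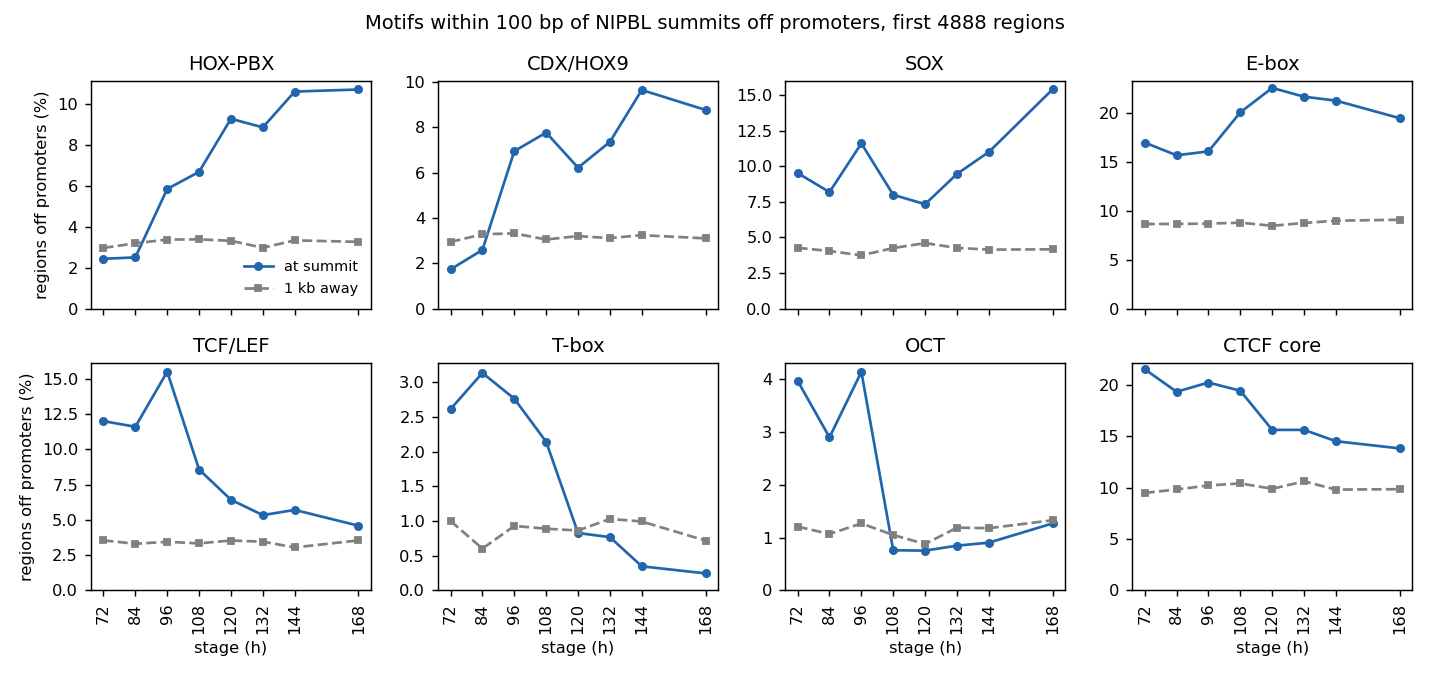
Share of NIPBL regions off promoters with each of 8 motifs within 100 bp of the summit (%, solid) and at positions 1 kb away (%, dashed) against stembryo stage (h, horizontal axis), with a separate vertical scale starting at 0 in each panel. HOX-PBX letters stand at 10.7% at 168 h, against 2.43% at 72 h, and TCF/LEF letters at 4.59% at 168 h, against 12% at 72 h.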

How the data were processed

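NIPBL ChIP-M was done by the authors on 8 wt stembryo libraries, 1 per stage. Per the submitters' processing notes and the methods, reads were trimmed with cutadapt 1.16 and aligned by Bowtie2 2.3.4.1 (mm10). SAMtools 1.8 was used to keep properly paired alignments of high mapping quality. Peaks were called per library with MACS2 2.1.1.20160309 without input control. The deposited columns hold, per peak, a summit, a fold over the local background, and a −log10 value each for p and q. Fold values were not compared between lists. The sequencing depths stated by the authors, lowest at 72 h and highest at 168 h, were not used here.

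Sub-peaks were merged into 1 region placed by its strongest summit. Only the 21 assembled chromosomes were used, which left out 66 to 161 peaks per list. A protein-coding gene was held when a region touched the 1 kb on either side of any of its annotated transcript starts (GENCODE vM21, GRCm38). H3K27ac, PolII, RAD21, CTCF and H3K27me3 lists were cut to the length of the shortest list of their own assay, and 1 base counted as overlap. For RAD21 the lists of replicate 1 were taken, and for H3K27ac those without a replicate number. Further wt lists of both assays in the series were not used. A gene's rank score fell from 1 for the first region to 0 for none. Trends used Spearman's rho with exact two-sided permutation over all orders of the 8 lists and Benjamini-Hochberg adjustment, and the trend test was tested on simulated data. The lowest background was solved from fold enrichment and −log10 p, and fitted 100% of peaks. Analyses used Python 3.11.15, numpy 2.4.6, pandas 2.3.3, scipy 1.17.1 and matplotlib 3.10.9.

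Named genes were the 12 late and 12 early genes and the 10 held throughout with the highest mean rank score, members of the gene lists with a window pattern or (for Hox, streak, paraxial and naive lists) in at least 3 lists, the 5 top distal regions per window, and the 10 genes with the largest covered span. Members and lists were chosen with earlier results of these data known. Alternatives were whole lists, ranking by fold, a 2.5 kb promoter, any-base placement, all annotated starts, a list length of 2444, −log10 q of at least 5, 50% coverage, a 50 bp motif window and leaving out each list.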

Additional observations from a re-analysis of the deposited data

How the results depend on the processing

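No paired analysis was possible because the NIPBL lists carry no replicate numbers. Leaving out the 72 and 84 h lists together, dropping regions found in every list of the other assays, and all alternatives to the motif counts other than whole lists and the 50 bp window were chosen after seeing the data. Whole lists made the location trends pass (rho = −0.738 promoter, 0.738 gene body, 0.762 distal), and gave 296 late and not early, 20 early and not late and 1835 genes held throughout. With −log10 q of at least 5, which left lists of 1476 to 22533 regions, the distal trend reversed (−0.286, late minus early −0.354 points). The late minus early promoter difference was then −4.19 points (p = 0.4, exact permutation). A length of 2444 gave 75 late, 41 early and 124 constant genes, and kept 18 of the 99 late and 14 of the 100 early genes. Ranking by fold enrichment kept 43 late and 55 early genes, and left Hoxc5, Hoxa2, Hoxd3, Hist1h4k and Hist1h4b with a rank score difference of 0. Without the 72 and 84 h lists the counts were 361 late, 1131 early and 737 constant genes and 0 motifs called over all regions. The location rho was then −0.257 for promoters, 0.371 for gene bodies and 0.2 for distal sequence (adjusted p = 0.714 each, exact permutation). A 50 bp motif window gave 4 calls off promoters, with CDX/HOX9 lost. Leaving out 1 list at a time gave 99 to 328 late, 100 to 444 early and 433 to 547 constant genes, 0 to 4 motifs, a promoter rho of −0.786 to −0.5, a gene body rho of 0.571 to 0.786 and a distal rho of 0.464 to 0.714. The H3K27ac trend reversed with whole lists (−0.738), ranking by fold enrichment (−0.19) and 50% coverage (−0.143), and that of RAD21 with whole lists (−0.286) and 50% coverage (−0.357). With whole lists the H3K27ac overlap thus fell with stage. A rho of that size had an unadjusted p of 0.0458 for list length (exact permutation). The late minus early rank score reversed for Etv4 with whole lists (0.119) and for Hoxd3 with a 2.5 kb promoter (−0.0828). The cause was not tested. No setting gave a gene with a rank trend. Absence from a list means below the calling threshold at that library's depth, which was not used here.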
